A study of Mus musculus with 8 samples.

Results

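The complement genes described here are 8 rows of the deposited expression table, picked by gene symbol out of 17492 rows: C1qa, C1qb, C1qc, C3, C4b, Cfb, Cfp and Serping1. All 8 were found. The cells were bone marrow-derived macrophages of C57BL/6 mice, grown in culture from marrow precursors. The 4 control libraries came from cells in normal medium, and the 4 serine/glycine-free libraries from cells in medium without these amino acids. No stimulus, age, duration or number of animals per library is stated in the labels, and nothing there says that the libraries came from separate cultures, so the p-values measure the spread between these libraries, which may be technical. The series title places the comparison in a study of serine metabolism, macrophage polarization, IGF1 and p38.

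Complement is a cascade of plasma proteins that tags microbes and dying cells for uptake. The classical pathway starts with C1q, a bundle of the chains encoded by C1qa, C1qb and C1qc, and continues through C4 and C2 to the cleavage of C3. The alternative pathway amplifies C3 cleavage with factor B (Cfb), and properdin (Cfp) stabilises its convertase. C1 inhibitor (Serping1) blocks the proteases that work with C1q. The liver makes most circulating components, whereas macrophages are a main source of C1q and make properdin locally.

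Without serine and glycine, Cfb fell the most among the well-expressed members, by 39.2%, followed by C1qa (fell by 16.0%) and Cfp (fell by 15.9%). C1qb fell by 6.91%, C1qc fell by 4.71%, and C3 rose by 5.04%, the last pair with calls that several libraries decided. C4b fell from a trace level, a call that was lost when its counts were added to those of C4a, a near-identical gene. Serping1 had too few counts to test. Changes were tested with edgeR's quasi-likelihood test, and adjusted p-values cover all 11700 genes that passed its filter on low counts. Of these, 33.2% passed an adjusted p of 0.05, with 17.3% lower and 15.9% higher. Of the 8 members, 7 passed the filter. C4b passed it only through the control group, where 4 of 4 libraries reached the required 0.559 CPM against 2 of 4 without serine and glycine. For this filter CPM are read counts relative to the unscaled library total. All other CPM values given here are relative to the TMM-scaled library size. Among the 6 members that passed in both groups, 5 were lower and 1 higher, with a median log2 change of -0.18 against 0.01 over all genes tested. In these bulk libraries, fewer cells of a type and less RNA per cell cannot be told apart.

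Library totals ran from 17565291 to 18201599 estimated counts, and the limit that a count of 0 sets, 3 counts, was 0.164 to 0.171 CPM, for counting error only. The 9 macrophage markers, among them Adgre1, Csf1r and Lyz2, summed to between 19026 and 19486 CPM in control and between 18985 and 19265 CPM in serine/glycine-free libraries. Behind these similar sums, single markers differed in opposite directions: Csf1r lay at 938 to 952 CPM in control and at 1234 to 1278 CPM in the other group, and Cd68, Lyz2 and Mertk were also higher there without overlap. Adgre1 lay at 5690 to 5822 CPM in control and at 4656 to 4946 CPM in the other group, and Itgam, Fcgr1 and Mrc1 were also lower without overlap. The part of these shifts in the results was not tested. Markers of neutrophils and their precursors (9 of 9 in the table, 1 tested) summed to 0.827 to 1.17 CPM in control and 2.05 to 2.39 CPM without serine and glycine, mostly S100a8, and their part in the results was not tested. The 3 hepatocyte markers, of the main complement-producing cell of the body, reached at most 0.0563 CPM in control and 0.333 CPM without serine and glycine. The lists for dendritic cells, T and NK cells, B cells, mast cells and stroma stayed at or below 1.83 CPM in every library. The endothelial list ran from 63.9 to 73.0 CPM in control and from 51.6 to 56.2 CPM in the other group, mostly from Pecam1, which macrophages also transcribe. None of the markers in the table was at 0 in all 8 libraries. Serine/glycine-free replicate 4 stood apart from its group: over genes, the chi-square per degree of freedom was 2.82 to 3.46 in its pairs with the other serine/glycine-free libraries, against 1.41 to 2.27 in every other pair within a group. Without it, all 7 tested members kept their calls, with log2 changes of -0.27 for C1qa, -0.13 for C1qb, -0.09 for C1qc, 0.09 for C3, -1.19 for C4b, -0.77 for Cfb and -0.28 for Cfp.

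Promoter sequences are shown for the members where one was available, so that the stretch before each start can be read beside the values. RefSeq's table on GRCm38.p6 held 4 of the 8 members, C1qb, C1qc, C3 and Cfp. The 150 bases before the start are given 5′ to 3′ on the gene's strand where no annotated exon overlaps them, which left out C1qc. Capitals mark matches, on either strand, to motifs for C/EBP factors (TTGCNNAA), Maf factors (TGCTGA) and NF-kappaB (GGG and CC with 5 bases of any kind between them). The stretches lie on the minus strand at chr4:136886201-136886350 (C1qb), chr17:57228137-57228286 (C3) and chrX:20931556-20931705 (Cfp).
C1qb: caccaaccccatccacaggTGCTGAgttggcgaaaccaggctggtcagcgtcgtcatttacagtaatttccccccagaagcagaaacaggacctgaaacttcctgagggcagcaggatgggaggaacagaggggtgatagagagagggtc
C3: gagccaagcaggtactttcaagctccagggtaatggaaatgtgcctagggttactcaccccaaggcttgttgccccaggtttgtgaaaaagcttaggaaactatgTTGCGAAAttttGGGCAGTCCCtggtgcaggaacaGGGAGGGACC
Cfp: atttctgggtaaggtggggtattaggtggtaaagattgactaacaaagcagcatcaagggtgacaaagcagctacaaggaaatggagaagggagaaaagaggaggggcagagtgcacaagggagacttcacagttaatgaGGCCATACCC

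In the full windows of 250 bases before to 50 after the start, C1qb had a Maf motif 131 bases before the start, and C3 had one 182 bases before it, beyond the printed stretch, a motif present in 19.1% of 27025 promoters. C3 also had a C/EBP motif 45 bases before the start. NF-kappaB matches began 197, 196, 33 and 10 bases before the start in C3, 191 and 190 in C1qb, 41 and 40 in C1qc and 10 in Cfp, so each of the 4 windows held at least 1. The C/EBP motif was present in 10.8% of promoters and the NF-kappaB motif in 50.4%. The NF-kappaB letters read from both strands overlap each other in C3, C1qb and C1qc. The STAT motif (TTCNNNGAA, in 8.47% of promoters) and the interferon response motif (GAAA repeated after 2 bases, in 3.49%) had 0 matches in the 4 windows. These are letter matches in a window, not measured sites.

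The C1q chains are encoded side by side on chromosome 4 of GRCm38.p6, in the order C1qb (136880126 to 136886200), C1qc (136889801 to 136892936) and C1qa (136895916 to 136898844), with 3600 bases between the first pair and 2979 between the second. All are annotated as protein-coding. They were among the most abundant transcripts per length: in control libraries C1qb ranked 43 and C1qc 70 of 17492 genes by mean TPM (a transcript's length-corrected share of its library, as the authors computed it), and C1qa ranked 332. Without serine and glycine the ranks were 56, 81 and 403.

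C1qa, the A chain, measured 237, 227, 219 and 233 CPM in control replicates 1 to 4 and 185, 192, 194 and 198 CPM in the serine/glycine-free replicates. Every control library lay above every serine/glycine-free library. The log2 change was -0.25 (SE 0.029, adjusted p = 1.3e-09 by edgeR), and the CPM means were 229 ± 7.63 and 192 ± 5.32 (SD, n = 4). C1qb, the B chain, measured 1068, 1007, 1055 and 1048 CPM in control and 955, 966, 942 and 1027 CPM without serine and glycine. Serine/glycine-free replicate 4 exceeded control replicate 2, so the groups overlapped in CPM. In TPM they did not, with a highest value of 1940 without serine and glycine and a lowest of 2014 in control. The log2 change of C1qb was -0.10 (SE 0.025, adjusted p = 0.00119 by edgeR), and -0.17 when each library's trend with gene length was removed. C1qc, the C chain, measured 850, 824, 836 and 807 CPM in control and 775, 786, 771 and 828 CPM in the other group. Again only serine/glycine-free replicate 4 reached into the control range in CPM. The TPM ranges were apart, at 1518 to 1581 without serine and glycine and 1619 to 1699 in control. The log2 change of C1qc was -0.07 (SE 0.024, adjusted p = 0.0243 by edgeR). However, it no longer passed after removing serine/glycine-free replicate 1, 2 or 3 or control replicate 1 or 3, one at a time. The largest adjusted p was 0.111, in the absence of serine/glycine-free replicate 3. With the length trend removed the change was -0.14 and passed.

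The chains did not change to the same extent. Summed over the chains, C1q transcripts went from 4190 ± 62.0 to 3805 ± 88.1 TPM (SD, n = 4), and the share of C1qa in that sum from 10.6% ± 0.33 to 9.60% ± 0.23. The C1qb/C1qa ratio of TPM was 4.61, 4.54, 4.91 and 4.60 in control and 5.26, 5.15, 4.97 and 5.29 without serine and glycine. Every serine/glycine-free value lay above every control value, by a smallest margin of 4.97 over 4.91. The difference in log2 ratio was 0.15 (SE 0.033, exact permutation p = 0.0286, adjusted p = 0.0343 over 6 ratios tested), where 0.0286 is the smallest p that 4 against 4 allows. The C1qc/C1qa ratio rose likewise, from 3.74 to 4.25 as geometric means (log2 difference 0.18, exact permutation p = 0.0286, adjusted p = 0.0343). The C1qc/C1qb ratio was 0.803 and 0.822, with overlapping groups and a log2 difference of 0.03 ± 0.019 (SE; exact permutation p = 0.114, adjusted p = 0.114).

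**Figure D1:**
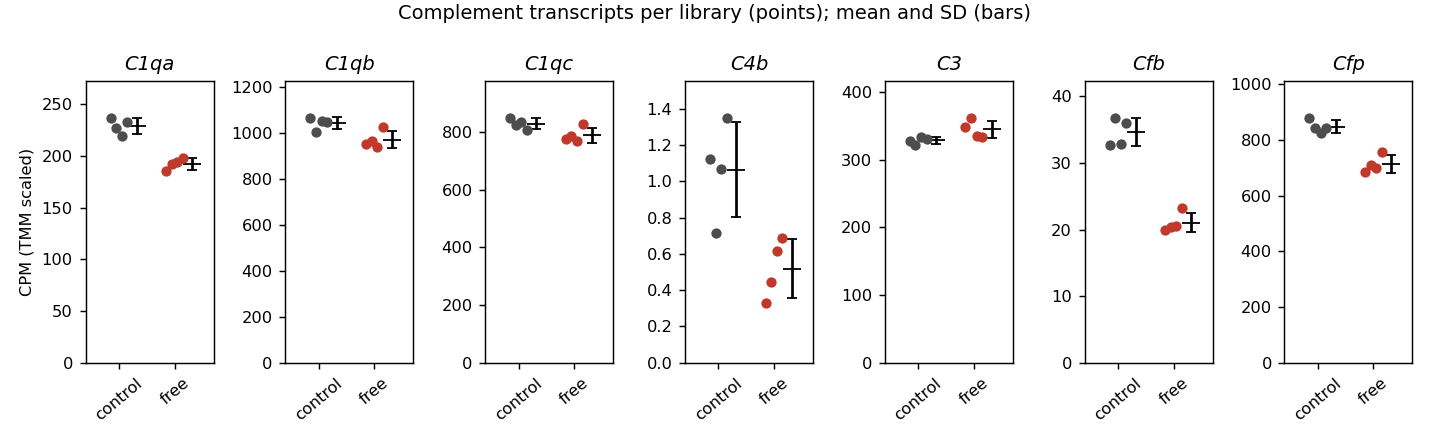
Transcript level in CPM (TMM scaled, linear axes from 0) of the 7 tested members in each control (grey) and serine/glycine-free ("free", red) library, with the mean and SD of 4 libraries beside the points. C1qa, Cfb and Cfp separate clearly between groups, C1qb and C1qc overlap through serine/glycine-free replicate 4, C3 groups nearly touch, and C4b lies near 1 CPM or below.

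C4b, the mouse gene for complement C4, lies on chromosome 17 (34728139 to 34743902) in the major histocompatibility complex, 112471 bases from Cfb. It was barely transcribed, with 20, 13, 18.8 and 24.4 estimated counts in control and 6, 7.63, 11 and 12 without serine and glycine. The highest serine/glycine-free library stayed just under the lowest control library. The log2 change was -1.03 (SE 0.29, adjusted p = 0.00467). On the log2(TPM + 1) scale, which compresses such low values, it was -0.22 (adjusted p = 0.0481 by limma). Of its library values, 37.5% were not whole numbers. Reads can be shared with the near-identical C4a, which had a summed 16.7 counts in control and 27.4 in the other group. With the counts of the pair added together, an alternative chosen after seeing the data, the totals were 93 and 64 and the log2 change of -0.54 did not pass (adjusted p = 0.118). The level of C4b is therefore uncertain. Serping1, which encodes C1 inhibitor (chromosome 2, 84765360 to 84775444), had between 0 and 3 counts per library, 5 in all in control and 4 in the other group, at or below the limit that a count of 0 allows, so no change was detectable at this depth.

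The members of C3 activation moved in different directions. Cfb, factor B, the protease of the alternative pathway convertase, lies on chromosome 17 at 34856374 to 34862514. It measured 32.7, 36.8, 32.9 and 36.0 CPM in control and 20, 20.4, 20.6 and 23.2 CPM without serine and glycine. The groups were far apart, and the log2 change was -0.72 (SE 0.056, adjusted p = 2.2e-14). Over all alternatives its log2 change lay between -0.77 and -0.69. Cfp, properdin (chromosome X, 20925454 to 20931555), measured 880, 842, 827 and 843 CPM in control and 685, 710, 698 and 758 CPM in the other group. No library of one group entered the range of the other, and the log2 change was -0.25 (SE 0.027, adjusted p = 1.3e-09). Per length, Cfp stood at 1035 ± 17.5 TPM in control, rank 144, far above Cfb at 24.2 ± 1.57 TPM. C3, the protein on which the pathways converge (chromosome 17, 57203967 to 57228136), measured 328, 322, 333 and 331 CPM in control and 348, 362, 335 and 334 CPM without serine and glycine. In CPM the groups just failed to overlap, while in TPM serine/glycine-free replicate 4, at 137 TPM, lay below 2 control libraries at 138 TPM. The log2 change of C3 was 0.07 (SE 0.027, adjusted p = 0.0363), and this call was not stable. It did not pass after removal of serine/glycine-free replicate 1 or 2 or control replicate 1, 2 or 4, with the largest adjusted p of 0.204 for serine/glycine-free replicate 2, where the change was 0.05. Nor did it pass in DESeq2 (adjusted p = 0.0803) or with limma on TPM (adjusted p = 0.179). Of 18 alternatives, 10 lost the call and 8 kept it. Among those that kept it was removal of the length trend (0.10, adjusted p = 3.2e-04 by edgeR).

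The balance between these transcripts differed between the groups. The C3/Cfb ratio of TPM was 6.04, 5.35, 5.96 and 5.35 in control and 10.4, 10.6, 9.94 and 8.91 without serine and glycine, a 1.75-fold difference (log2 0.81, SE 0.073, exact permutation p = 0.0286, adjusted p = 0.0343). The Cfp/Cfb ratio had a geometric mean of 42.8 and a highest value of 47.0 in control, against 59.2 and a lowest value of 57.1 in the other group (log2 difference 0.47, adjusted p = 0.0343, exact permutation test). The C3/Cfp ratio went from 0.132 to 0.168 (log2 difference 0.34, adjusted p = 0.0343, exact permutation test). All 3 ratios separated the groups without overlap, so Cfb fell more than Cfp, and Cfp and C3 moved apart. Each of these ratios follows from the others and uses members already tested above, so they are not independent results. These are ratios of transcripts and do not measure protein or convertase activity.

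**Figure D2:**
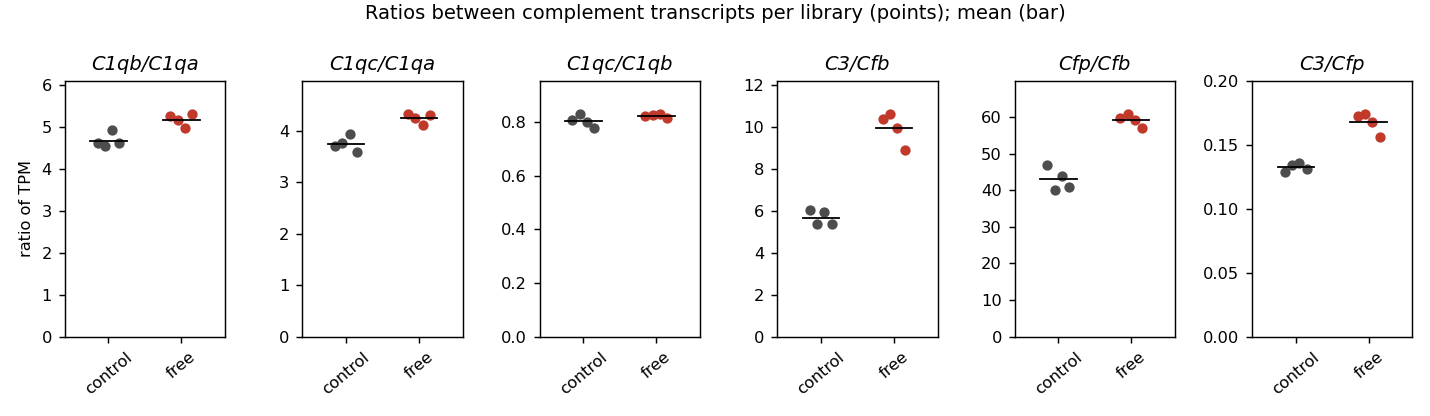
Ratio of TPM between 2 members in each library (points, linear axes from 0) with the mean of 4 libraries (bar), for control (grey) and serine/glycine-free ("free", red). The groups do not overlap for 5 of the ratios, with C3/Cfb between 5.35 and 6.04 in control and between 8.91 and 10.6 in the other group, and they overlap for C1qc/C1qb.

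Of the tested members, 5 of 7 had CPM ranges that did not overlap between the groups, against 30.6% of all genes tested. C4b, one of these 5, had passed the filter through the higher group only. With group means removed, the members also varied together to different degrees over the 8 libraries: C1qb and C1qc had a Pearson r of 0.83, and Cfp had 0.82 with C1qa, 0.79 with C1qb and 0.84 with C1qc. C1qa had lower values with the other C1q chains, 0.48 with C1qb and 0.40 with C1qc. Cfb had 0.50 with Cfp and 0.25 with C1qb, and C3 had -0.54 with Cfb. These are descriptions over 8 libraries that share depth and scaling, and serine/glycine-free replicate 4, the highest of its group for C1qa, C1qb, C1qc, Cfb, Cfp and C4b, weighs on them.

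The genes most like each member were sought among the 9745 other genes averaging 5 CPM or more, by Pearson r of log2(CPM + 1) over the 8 libraries, where the group difference is part of r. For Cfb they were Icam1 (r = 0.994), an adhesion molecule, and the phospholipid transfer protein gene Pltp (r = 0.992), which changed by -0.26 and -0.30 on the log2 scale. For Cfp they were Ifi27l2a (r = 0.997, log2 change -0.55), an interferon-inducible gene, and Lman2 (r = 0.992, -0.12), which encodes a cargo lectin of the secretory pathway. For C1qa they were Lgals9 (r = 0.995, -0.26), which encodes galectin-9, and the histone demethylase gene Kdm6b (r = 0.989, -0.65). These high values were shared by many genes: 282 genes exceeded an r of 0.95 with Cfb, 145 with Cfp and 143 with C1qa. The nearest for C1qb were Dcxr and Cdkn1b (r = 0.979 and 0.976), for C1qc Trim8 and Gnai2 (0.968 and 0.967), for C3 Mfsd11 and Cerk (0.971 and 0.960) and for C4b Ptk2 and Incenp (0.980 and 0.966). On the log2(TPM + 1) scale Lgals9 and Kdm6b stayed nearest to C1qa, Pltp stayed among the nearest to Cfb and Ifi27l2a among those to Cfp, whereas the nearest genes of C1qc, C3 and C4b were all different.

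The tested genes next to the members on the chromosome were read from the same fit. Within 50 kb of Cfb lay 7 tested genes, of which 2 fell, Skiv2l (log2 change -0.10) and Ehmt2 (-0.13), and 5 did not pass. Among all genes tested, 17.3% fell. C2, the classical pathway counterpart of Cfb, is annotated with 87 bases between the genes. C2 was at 0.824 CPM in control and 0.614 CPM without serine and glycine (log2 change -0.42, SE 0.28, adjusted p = 0.269). Next to Cfp, Syn1 (-0.20) and Elk1 (-0.17) fell and Uxt rose (0.27). Beside Serping1, Ube2l6 fell (-0.11, adjusted p = 0.03) and Clp1 did not pass (0.09, adjusted p = 0.347), and beside C4b, Tnxb did not pass (0.58, adjusted p = 0.166). The 2 tested neighbours of C3, Trip10 and Gpr108, did not pass, and the C1q genes had no tested neighbour within 50 kb other than one another. These neighbours were chosen by position after the members' values were known.

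The wider complement system was described with a list of 54 further genes, of which 49 were in the table and 22 were tested. Of these, 6 rose, 6 fell and 10 did not pass, while 15.9% of all genes tested rose and 17.3% fell. Their median log2 change was -0.01 against 0.01 over all genes. Most of the cascade's other soluble proteins were at trace level. Hc (C5), C6, C7, C8a, C8b, C9, Cfi and C4bp had at most 4 counts per group. Of the C1 proteases, C1ra stood at 7.54 ± 0.350 CPM in control and rose to 9.35 ± 0.798 CPM (SD, n = 4), a log2 change of 0.31 (adjusted p = 0.00491), with values that were not whole in 37.5% of libraries, while C1s1 had 12.7 and 8 counts per group. Masp2, a lectin pathway protease, fell (log2 change -0.79, adjusted p = 0.00625) from 1.79 to 1.03 CPM, but no library had a whole count for it and its groups overlapped. Cfd was not analysed here.

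Among regulators, Clu, which encodes clusterin, an inhibitor of the terminal complex, rose from 3.62 to 5.97 CPM (log2 change 0.72, adjusted p = 9.8e-07). Cr1l, the membrane regulator Crry of rodents, rose (0.12, adjusted p = 0.00838), from 73.1 to 79.3 CPM, but limma on TPM (adjusted p = 0.117) and removal of the length trend (adjusted p = 0.0855) each ended the call. The decay-accelerating factor gene Cd55 was at 428 and 430 CPM (log2 change 0.01, adjusted p = 0.885, with a sign that flipped under 4 alternatives), and Cd46 (0.38, adjusted p = 0.241) and Cd59a (0.10, adjusted p = 0.384) did not pass either.

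Receptors for complement fragments moved in both directions. C3ar1, the receptor for C3a, was at 1626 ± 20.7 CPM in control and rose to 1829 ± 23.9 CPM (SD, n = 4), a log2 change of 0.17 (adjusted p = 1.2e-08), and C5ar1, the receptor for C5a, rose from 179 to 197 CPM (0.14, adjusted p = 4.0e-04). The second C5a receptor gene C5ar2 stood at -0.07 (adjusted p = 0.662), and at 0.01 without control replicate 3. The chains of complement receptor 3, which binds iC3b, both fell: Itgam went from 1695 to 1110 CPM (-0.61, adjusted p = 1.2e-24) and Itgb2 from 1032 to 875 CPM (-0.24, adjusted p = 3.6e-12). Itgax, the alpha chain of complement receptor 4, rose from 4.23 to 6.77 CPM (0.68, adjusted p = 9.6e-06). Cd93, once described as a C1q receptor, fell from 462 to 389 CPM (-0.25, adjusted p = 5.6e-11), as did Calr, encoding calreticulin, which binds C1q at the cell surface (-0.17, adjusted p = 1.8e-07). C1qbp, whose protein binds C1q heads, stood at -0.06 (adjusted p = 0.225) and passed with the length trend removed (-0.12, adjusted p = 0.00281). Vsig4, a C3b receptor of resident macrophages, had 3 counts in control and 16 in the other group and was not tested.

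**Figure D3:**
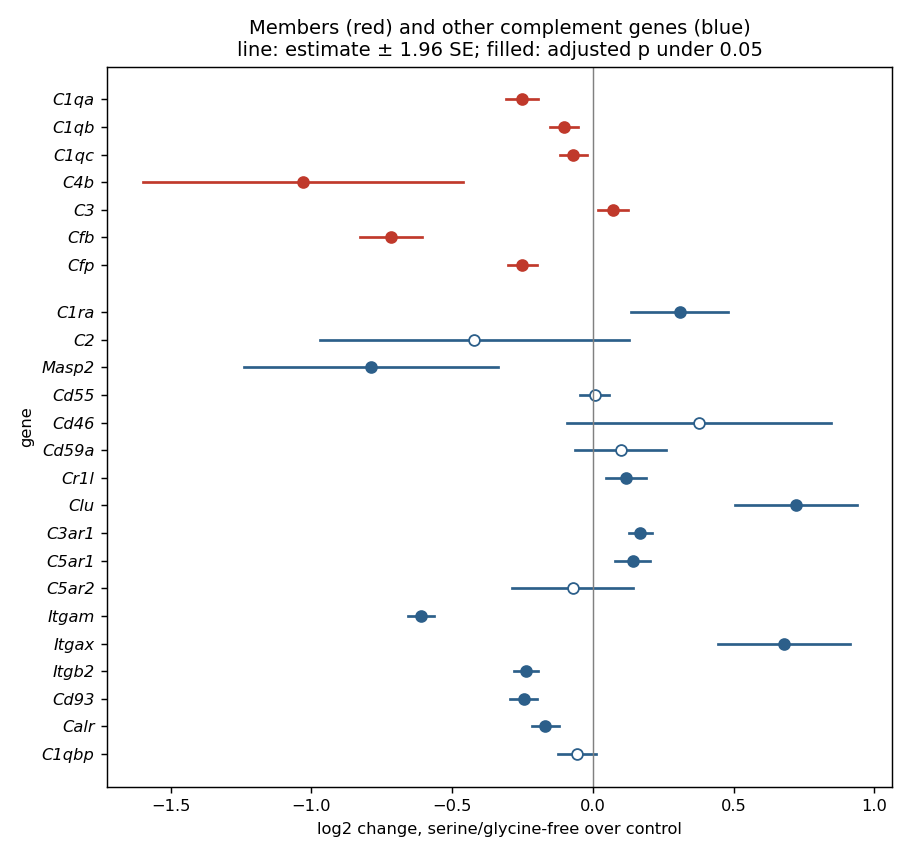
Log2 change without serine and glycine (x axis) for the 7 tested members (red) and other tested complement genes (blue), with lines for the approximate 95% interval and filled points for an adjusted p under 0.05. Cfb and C4b lie farthest to the left among members, Masp2 and Itgam among the others, and Clu and Itgax farthest to the right.

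Transcription factors known to act on complement genes were listed as well: of 22, all tested, 6 rose, 8 fell and 8 did not pass. Among all genes tested, 15.9% rose and 17.3% fell. The interferon signal transducer gene Stat2 fell from 213 to 176 CPM (log2 change -0.27, adjusted p = 1.2e-10), Irf7 by a log2 change of -0.31 and Stat3 of -0.29. Irf1 stood at -0.09 (adjusted p = 0.105) and passed once the trend with length was taken out (-0.11, adjusted p = 0.0371). Of 28 tested interferon-stimulated genes listed for comparison, 22 fell, 1 rose and 5 did not pass, with a median log2 change of -0.27, and Zbp1 (-0.73), Ddx58 (-0.34) and Ifit3 (-0.34) had the smallest adjusted p. Maf, a transcription factor of macrophages, stood at -0.05 (adjusted p = 0.181). Cebpa (0.44) and Cebpb (0.22) rose and Cebpd fell (-0.24), the last with counts that were not whole in any library. Nr1h3, which encodes the oxysterol receptor LXR alpha, rose (0.62) and its partner Rxra rose (0.20). These are transcript levels, and whether any of these factors acts on the members was not tested.

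**Figure D4:**
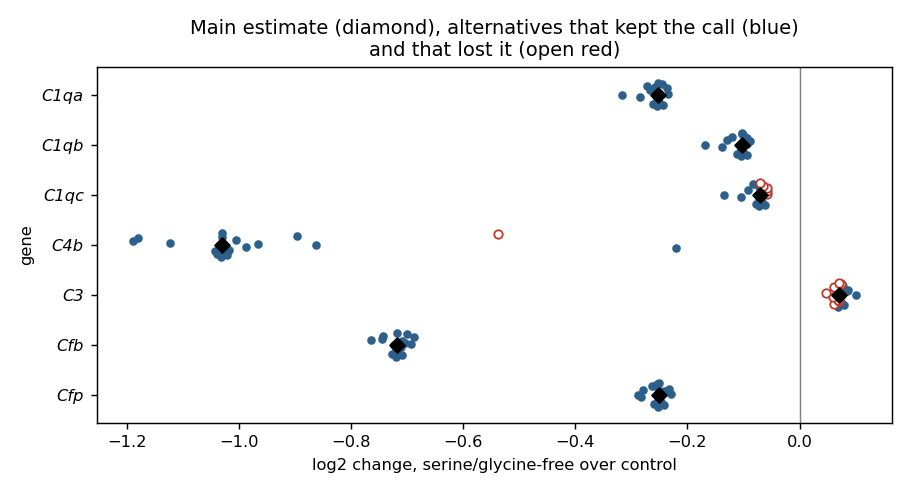
Log2 change of each tested member (x axis) as reported (diamond) and under each alternative of processing or left-out library, blue where the call at an adjusted p of 0.05 was kept and open red where it was lost. Cfb, Cfp, C1qa and C1qb kept their calls throughout, whereas C1qc and C3 lie close to 0 and lost theirs under several, and C4b lost its call when counted together with C4a.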

How the data were processed

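RNA was measured in 8 libraries prepared with oligo-dT beads, per the labels' protocols. Per the submitters' processing notes, the tools BWA, Bowtie2 and RSEM and the build GRCm38.p6 are listed, in roles and versions not given here. The authors deposited estimated counts, FPKM and TPM per gene and library. The estimated counts, 8.06% to 8.47% of them not whole (tolerance 1e-06), were rounded and tested. Gene length for the length trend was derived from the authors' FPKM. TPM, as deposited, gave levels between genes and ratios. Another 6 columns, of averages, stayed unused.

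edgeR 4.0.16 (R 4.3.3) was run on all genes passing its filter (minimum count 10, minimum total 15), with TMM scaling, a robust quasi-likelihood F test and Benjamini-Hochberg adjustment at 0.05, 4 libraries against 4. SEs come from the F statistic. Within groups, library pairs differed by more than sampling noise (chi-square per degree of freedom 1.41 to 3.46). Ratios were tested with two-sided exact permutation tests. The code was tested on simulated data. Alternatives were DESeq2 1.42.0, limma 3.58.1 (voom, and log2(TPM + 1)), RLE or no scaling, no filter, a minimum average of 5 CPM, the replicate block, each library left out, an adjusted p of 0.01 and removal of the length trend.

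Members and lists were chosen with earlier results of these data known. Named genes were the members, a fixed set of 20 complement genes, others of that list that passed and averaged 1 CPM or more, a fixed set of transcription factors, Maf and Irf1 among them, and other factors that passed with a log2 change of 0.2 or more in size, 3 interferon-stimulated genes, and the 2 genes most like each member. Coordinates and promoters are RefSeq's on GRCm38.p6, matched by Entrez ID. Some genes that this rule names are not reported here.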

Additional observations from a re-analysis of the deposited data

Results flagged for a closer look

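In 82 groups of 4 libraries screened (2 for each member and each named complement gene, factor or interferon-stimulated gene), 3 had a library far from the other 3 by Dixon's 95% critical value. Chance gives about 1 in 20, so 3 of 82 groups is no more than chance gives. All 3 fell on serine/glycine-free replicate 4, which also differed most from its group over all genes (chi-square per degree of freedom 2.82 to 3.46 against 1.41 to 2.27 for the other pairs). Cr1l was at 75.7 CPM there against 80.3 to 80.6 CPM in the other 3 libraries, Calr at 847 CPM against 793 to 796 CPM, and Maf at 442 CPM against 407 to 410 CPM.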

How the results depend on the processing

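Cfb, Cfp, C1qa and C1qb kept direction and call under all 18 alternatives, and C4b under 17 (it could not be tested with a minimum of 5 CPM). C4b lost its call when added to C4a (-0.537). The change of C3 kept its direction but was not past the threshold with no filter on low counts (0.062), with DESeq2 (0.069), with limma on log2(TPM + 1) (0.059) or at an adjusted p of 0.01 (0.071), and C1qc was lost at 0.01 (-0.070). In each of these settings for C3 the number of members called higher was 0. With the replicate number as a block, C3 was at 0.070 (adjusted p = 0.0666) and the number of members called higher 0. With single libraries left out, the log2 change of C3 ranged from 0.047 to 0.087, that of C1qc from -0.092 to -0.058, and the number of members called higher from 0 to 1. Same-numbered libraries did not deviate together (r = -0.0479, 0.0609, 0.0507 and -0.0943 for numbers 1 to 4). Differently numbered libraries gave r between -0.109 and 0.0785. Deviations within a group hold counting noise, which can keep r low, so whether the numbers pair the libraries is not settled. Cd55 turned from 0.006 to -0.002 with no filter and ranged from -0.005 to 0.032 with libraries left out, and C5ar2 ranged from -0.156 to 0.011. The ratios kept their sign without each library, where 3 against 4 libraries cannot pass the exact test, so only their values were compared, a choice made after the results were seen. Counts of genes called stayed within 1.5 times for all genes and the wider list. Depth limits Serping1, C2, C4b and the terminal components.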
